A study of Homo sapiens with 6 samples.

Results

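Expression of the histone genes was read from RNA-seq of the pancreatic ductal adenocarcinoma (PDAC) lines PK-1 and Panc-1, which are both established. A line contributed a culture labelled Control, a culture exposed for 24 h to RARγi-1 and a culture exposed for 24 h to RARγi-2, with 1 library each. RARγi-1 is LY2955303 and RARγi-2 is MM11253, both inhibitors of retinoic acid receptor γ. All 6 libraries were prepared from total RNA with the TruSeq Stranded mRNA kit, which takes up polyadenylated RNA. The labels give no genotype change, dose or vehicle for any of the 6 cultures. The treatment entry of both RARγi-2 libraries reads RARγi-1, and these libraries were assigned by their titles.

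Genes were chosen by symbol alone. Of 53826 entries, 122 have a symbol that starts with HIST1H, HIST2H, HIST3H, HIST4H, H2AF, H3F3 or H1F. Symbols that end as pseudogenes (30) and 1 antisense RNA, H1FX-AS1, were set aside, which left 91 histone genes: 75 clustered genes (HIST symbols) and 16 replacement variants (H2AF, H3F3 and H1F). The values are TPM, a transcript abundance per length and library total, and everything under 1 TPM was deposited as 1 TPM, called the floor here. In all, 58 of the 91 genes lay above the floor in at least 1 library, 28 lay above it in all 6, and 33 lay at it in all 6.

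DNA is wound around an octamer of the core histones H2A, H2B, H3 and H4, and linker histone H1 binds where it enters and leaves. Most core and linker histones are made in S phase from small intronless genes that lie in clusters, and their mRNAs end in a conserved stem-loop, bound by SLBP, in place of a poly(A) tail. Replacement variants come from single genes outside the clusters, are transcribed throughout the cell cycle and carry a poly(A) tail. A number of clustered genes can also be processed at a poly(A) signal downstream of the stem-loop, as described for differentiating cells. Because the kit takes up tailed RNA, a change in the amount of a clustered histone mRNA and a change in the part of it that carries a tail cannot be told apart in these values. In cultures measured in bulk, fewer cells that transcribe a gene and less RNA per cell cannot be told apart either.

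The stem-loop sequences are shown because they separate the classes and because 1 replacement variant carries one. GENCODE 29 transcripts (GRCh38) were searched for a stem of 6 bases written GGNNNT, then a loop of 4 bases that starts with T and then the complementary stem, which ends in CC. All 75 clustered genes have a transcript in this annotation, and 32 of them held such a stem-loop. Among the 36 clustered genes whose coding transcript model runs past the stop codon, 31 held it, and its first base lay between 23 and 68 bases past the stop codon. Another 34 coding clustered genes, HIST1H2BK and HIST1H1C among them, have no model that runs past the stop codon, so their ends were not in the searched sequence. Of the 16 replacement variants only H2AFX held a stem-loop, and it lay 50 bases past the stop codon. Stem bases are in capitals and loop bases in lower case, 5′ to 3′, with T for U.
Stem-loop of 18 genes for H2A, H2B and H3, such as HIST1H2AC (chr6:26124669-26124684, plus strand) and HIST2H2BE (chr1:149886188-149886203, minus strand): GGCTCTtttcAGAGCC
Stem-loop of 5 genes for H2B and H3, such as HIST1H2BD (chr6:26158587-26158602, plus strand): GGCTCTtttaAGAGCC
Stem-loop of HIST1H3E (chr6:26225596-26225611, plus strand): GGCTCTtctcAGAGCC
Stem-loop of 5 H4 genes, such as HIST1H4H (chr6:26285131-26285146, minus strand): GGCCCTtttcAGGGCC
Stem-loop of 3 H4 genes, such as HIST2H4B (chr1:149860769-149860784, minus strand): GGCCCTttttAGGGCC
Stem-loop of H2AFX (chr11:119094898-119094913, minus strand): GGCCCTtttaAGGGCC

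The H2A, H2B and H3 genes shared the stem GGCTCT, and the H4 genes and H2AFX shared the stem GGCCCT. In the last 300 bases of a transcript, any stem of 6 bases that starts with GG around a loop of 4 bases was found in 20 of the 75 clustered genes, in 0 of the 16 replacement variants and in 0.660% of all 206694 GENCODE transcripts. A histone gene was counted if any of its transcripts held one, whereas the last share is over single transcripts, so the units differ.

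Poly(A) signals divided the clustered genes as well. AATAAA or ATTAAA stood in the last 50 bases of a transcript in 26 of 75 clustered genes and in 14 of 16 replacement variants. Of the 36 clustered genes with a model past the stop codon, 23 had such a signal, and 21 of these 23 lay above the floor and 10 reached 10 TPM in at least 1 library. Of the other 13, 8 lay above the floor and 1 reached 10 TPM. Of the 34 whose models end at the stop codon, 15 lay above the floor and 2 reached 10 TPM. These are descriptions over genes, and whether the extent of the models follows how strongly a gene is transcribed was not tested.

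Promoters were read from the RefSeq table of GRCh38.p14, which had an entry for 79 of the 91 genes (65 clustered and 14 replacement variants). Both strands of the 300 bases from 250 before to 50 after the start were searched for CCAAT, for TATAAA, for the octamer ATTTGCAT and for the E2F-like TTTNNCGC, and overlapping matches were all counted. CCAAT was found in 84.6% of clustered promoters, 78.6% of variant promoters and 35.7% of all 27305 promoters, and TATAAA in 66.2%, 28.6% and 12.0%. The octamer, known from H2B promoters, was found in 40% of clustered promoters against 1.80% of all, in 77.8% for H2B and 68.8% for H2A genes, and in 0% for H1 and H4 genes. Many H2A and H2B genes lie in pairs on opposite strands, with starts 194 to 248 bases apart. The windows of such a pair overlap and 1 octamer is counted for both genes, so the H2A and H2B shares are not independent. TTTNNCGC was found in 30.8% of clustered, 7.14% of variant and 6.90% of all promoters. The perfect direct repeat with a spacer of 5 bases, a form of the element that retinoic acid receptors bind, was found in no histone promoter of the table and in 1 of all promoters. A match or its absence says only what letters stand in this window. The 250 bases before the start are shown for the variants H2AFX and H2AFZ, which were lower in treated cells, and for HIST1H2AC and HIST2H2BE, which were higher, with matches to CCAAT and to TATAAA and to the octamer on either strand in capitals.
H2AFX (chr11:119095466-119095715, minus strand): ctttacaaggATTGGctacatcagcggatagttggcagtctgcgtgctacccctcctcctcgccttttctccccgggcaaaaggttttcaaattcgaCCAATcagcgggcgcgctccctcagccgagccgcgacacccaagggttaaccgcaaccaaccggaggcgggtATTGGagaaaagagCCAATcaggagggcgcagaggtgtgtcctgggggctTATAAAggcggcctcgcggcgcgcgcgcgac
H2AFZ (chr4:99950276-99950525, minus strand): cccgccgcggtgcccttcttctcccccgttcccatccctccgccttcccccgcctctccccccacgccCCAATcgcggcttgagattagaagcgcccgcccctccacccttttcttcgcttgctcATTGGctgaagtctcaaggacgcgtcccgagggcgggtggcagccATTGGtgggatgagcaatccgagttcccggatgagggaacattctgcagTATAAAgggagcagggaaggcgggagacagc
HIST1H2AC (chr6:26123922-26124171, plus strand): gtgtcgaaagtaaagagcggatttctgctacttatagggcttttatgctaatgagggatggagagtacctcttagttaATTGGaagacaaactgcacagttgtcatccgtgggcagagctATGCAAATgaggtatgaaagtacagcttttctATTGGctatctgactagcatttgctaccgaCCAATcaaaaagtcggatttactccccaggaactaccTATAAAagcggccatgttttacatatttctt
HIST2H2BE (chr1:149886683-149886932, minus strand): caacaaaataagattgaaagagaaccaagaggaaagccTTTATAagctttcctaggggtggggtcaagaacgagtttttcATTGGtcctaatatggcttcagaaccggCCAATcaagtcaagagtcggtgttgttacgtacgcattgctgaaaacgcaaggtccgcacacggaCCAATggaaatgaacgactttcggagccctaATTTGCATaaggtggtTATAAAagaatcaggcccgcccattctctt

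H2AFX held 4 matches to CCAAT, and each of H2AFZ, HIST1H2AC and HIST2H2BE held 3. HIST1H2AC and HIST2H2BE each held the octamer, which was in neither variant shown. The promoters shown do not stand for the rest in this. The octamer was absent from those of HIST1H1C, HIST1H2BD, HIST2H2AA3 and HIST1H4H, which were also higher in treated PK-1 cells, and present in that of the variant H3F3B. It was found in 34.1% of promoters of clustered genes above the floor and in 52.4% of those at the floor. CCAAT and TATAAA thus stood in promoters of genes that were lower and of genes that were higher after treatment.

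By summed level in these libraries, replacement variants stood above the clustered genes. Their summed level was 2660 TPM in the PK-1 control and 2788 TPM in the Panc-1 control, against 327 and 190 TPM for the clustered genes. The kit takes up tailed RNA, so clustered mRNA without a tail is left out or under-represented. These values therefore do not rank the classes by total mRNA. Clustered genes lay above the floor in 33, 40 and 38 of 75 cases in PK-1 (control, RARγi-1, RARγi-2) and in 19, 24 and 30 in Panc-1, and 15 reached 10 TPM in at least 1 library. Above the floor in at least 1 library were 4 of 6 H1, 11 of 17 H2A, 13 of 23 H2B, 9 of 14 H3 and 9 of 15 H4 genes. On chromosome 6 lie 55 of the clustered genes, 19 are on chromosome 1 and 1, HIST4H4, is on chromosome 12. Among replacement variants, 12 lay above the floor and 10 reached 10 TPM, while H1FNT, H1FOO, H2AFB1 and H2AFB2 lay at the floor in all 6 libraries.

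The sums of the classes moved in opposite directions. Clustered genes summed to 327, 803 and 864 TPM in PK-1 (control, RARγi-1, RARγi-2) and to 190, 261 and 444 TPM in Panc-1, which is 2.46, 2.64, 1.37 and 2.33 times the control. Replacement variants summed to 2660, 2323 and 2043 TPM in PK-1 and to 2788, 2262 and 2140 TPM in Panc-1, or 0.873, 0.768, 0.811 and 0.767 times the control. The clustered share of the summed histone TPM was therefore 10.9%, 25.7% and 29.7% in the PK-1 libraries and 6.38%, 10.3% and 17.2% in those of Panc-1. All 4 treated libraries lay above their control in this share. In PK-1, H2AFZ alone (986, 535 and 287 TPM) was lower by more than the variant sum was. The other variants together were thus higher in the treated PK-1 libraries than in the control. In Panc-1, H2AFZ (980, 601 and 564 TPM) was lower by less than the variant sum. There is no replicate of any condition, so none of these differences has a replicate check or a p-value.

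**Figure D1:**
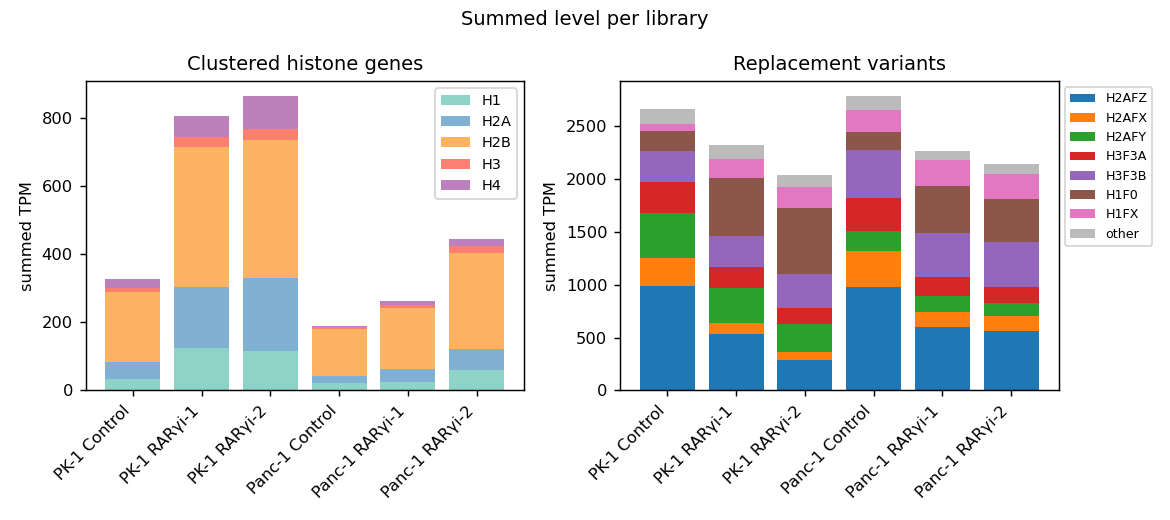
Stacked bars of the summed level (TPM, linear axis from 0) in each of the 6 libraries, on the left for clustered histone genes by histone type and on the right for replacement variants, with the smaller ones as other. Clustered sums were higher in all 4 treated libraries than in their controls, from 327 to 864 TPM in PK-1 with RARγi-2, while the sums of the variants were lower, with H2AFZ the largest segment in both controls. In PK-1 the variants other than H2AFZ were together higher in the treated libraries.

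To describe single genes, 1 TPM was added to each value and the log2 ratio of a treated library to the control of its line was taken as the log2 fold change, and a gene was called higher or lower when it was past 2-fold. With 1 library per condition this is a limit of size and not a test. As a yardstick, the treated libraries of a line differed from each other by a scaled median absolute deviation that corresponds to 0.413 in PK-1 and 0.321 in Panc-1 for a log2 fold change. This yardstick includes real differences between the inhibitors.

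Among the clustered genes above the floor in at least 1 library of the line, 18 of 44 were higher in PK-1 with RARγi-1 and 20 of 44 with RARγi-2, against 9.05% and 11.9% of all entries. In Panc-1, 4 of 33 were higher with RARγi-1 and 11 of 33 with RARγi-2, against 7.3% and 8.34% of all entries. No clustered gene was lower past 2-fold in any of the 4 comparisons, where 4.85%, 12.3%, 5.96% and 11% of all entries were (PK-1 RARγi-1, PK-1 RARγi-2, Panc-1 RARγi-1, Panc-1 RARγi-2). With no pseudocount, 1 clustered gene, HIST1H2BC, was lower in Panc-1 with RARγi-1 (-1.13). The median log2 fold change of the clustered genes was 0.73, 0.78, 0.06 and 0.72 in the same order, beside 0.13, 0.01, 0.08 and -0.01 over all entries. A gene at the floor in the control can only stay or be higher, so the counts were also taken over clustered genes above the floor in the control. These gave 15 of 33 and 19 of 33 higher in PK-1 and 4 of 19 and 10 of 19 in Panc-1. A gene can be called lower only where its control exceeds 3 TPM, which held for 17 clustered genes in PK-1 and 9 in Panc-1, so the absence of lower calls rests on these alone. Of the 17, 10 were higher with each inhibitor, against 8.30% and 11.0% of all entries over 3 TPM in that control, and 0 were lower, against 6.11% and 15.6%. Of the 9, 1 and 5 were higher, against 6.64% and 7.81%, and 0 were lower, against 7.45% and 13.8%.

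**Figure D2:**
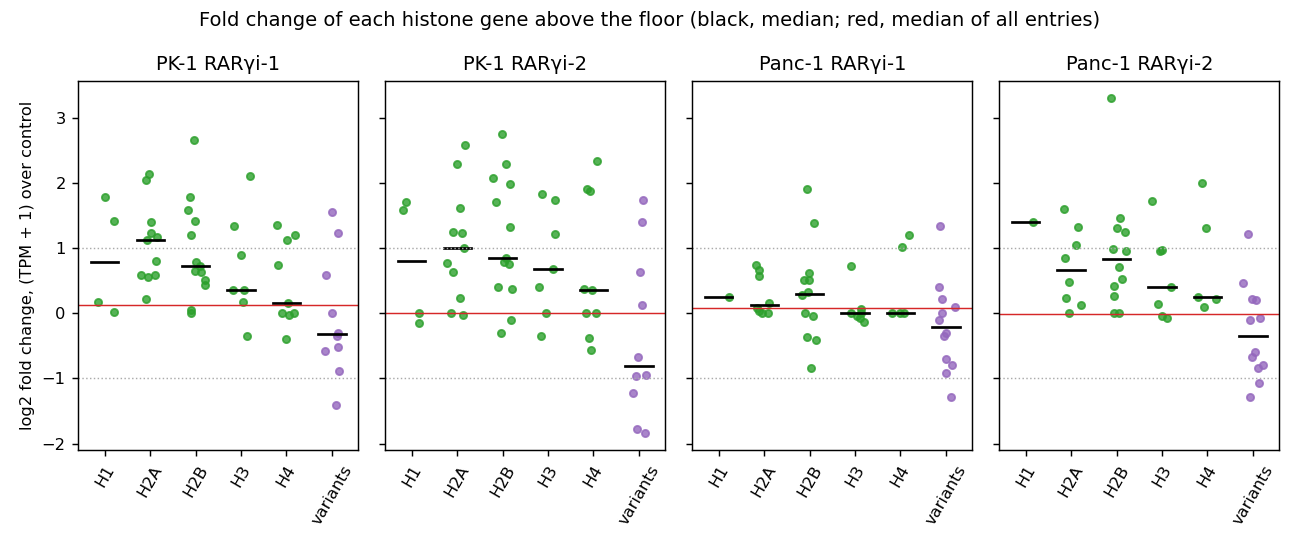
Log2 fold change of (TPM + 1) over the control for each histone gene above the floor in its line, 1 point a gene, in 4 panels for the 4 treated libraries, with clustered genes (green) by histone type and replacement variants in violet. Black bars are medians, the red line is the median of all entries and dotted lines mark 2-fold, and no green point lies below the lower dotted line.

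The linker histone gene HIST1H1C, which encodes H1.2, was the second clustered gene by mean level. It measured 33.5, 119 and 112 TPM in PK-1 (control, RARγi-1, RARγi-2) and 21.8, 26.0 and 59.4 TPM in Panc-1. Its log2 fold change was 1.79 and 1.71 in PK-1, and 0.24 and 1.41 were found in Panc-1, so that the RARγi-1 library of Panc-1 lay within the yardstick. HIST1H1E, the gene for H1.4, lay at the floor in the PK-1 control and in all 3 Panc-1 libraries, and measured 4.33 and 5.04 TPM in the treated PK-1 libraries. Of the other H1 genes, HIST1H1B and HIST1H1D stayed at or under 1.51 TPM in every library, and HIST1H1A and the testis gene HIST1H1T lay at the floor in all 6. Summed H1 genes of the clusters were 3.61 and 3.37 times the control in PK-1 and 1.19 and 2.72 times in Panc-1.

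Among H2A genes, HIST2H2AA3 measured 13.3, 58.5 and 85.2 TPM in PK-1 and 9.67, 14.96 and 31.6 TPM in Panc-1. HIST1H2AC measured 12.9, 60.5 and 67.6 TPM in PK-1 and 7.12, 11.9 and 15.8 TPM in Panc-1. Both genes encode canonical H2A, and both ordered the libraries control, RARγi-1, RARγi-2 in each line. Their log2 fold changes with RARγi-2 were 2.59 and 2.30 in PK-1, beside 1.61 and 1.05 for Panc-1. HIST3H2A, which lies with a partner H2B gene on chromosome 1, measured 11.6, 27.3 and 28.9 TPM in PK-1 and 2.75, 5.27 and 5.74 TPM in Panc-1. It was past 2-fold in PK-1 with both inhibitors, and in Panc-1 with RARγi-2 its log2 fold change was 0.85, or 1.06 without a pseudocount. HIST1H2AE measured 2.01, 6.94 and 8.22 TPM in PK-1 and 1.08, 1.33 and 1.46 TPM in Panc-1. The H2A genes as a sum were 3.66 and 4.38 times the control in PK-1 and 1.73 and 2.99 times in Panc-1. In Panc-1, 13, 11 and 10 of the 17 H2A genes lay at the floor. With floor values counted as 1 TPM the ratios were 1.39 and 2.13 in Panc-1 and 3.19 and 3.82 in PK-1. HIST2H2AA3 has a near-identical copy, HIST2H2AA4, between which reads may have been split, and the pair together measured 17.8, 65.5 and 93.7 TPM in PK-1 and 9.67, 16.01 and 33.3 TPM in Panc-1.

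H2B genes held the largest part of the clustered level. HIST1H2BK measured 129, 203 and 168 TPM in PK-1 and 98.7, 125 and 163 TPM in Panc-1, the highest clustered gene in every library. It was past 2-fold in none of the 4 comparisons (log2 fold change 0.65 and 0.38 in PK-1 against 0.33 and 0.72 for Panc-1), and its share of the clustered TPM went from 39.5% to 25.2% and 19.5% in PK-1 and from 51.9% to 47.7% and 36.8% in Panc-1. With floor values left out of the sums, the other clustered genes were thus further above their control in proportion than HIST1H2BK in all 4 comparisons. Clustered genes at the floor numbered 56 in the Panc-1 control and 51 with RARγi-1, so the sums there depend on how these are counted. HIST1H2BD measured 24.0, 74.3 and 81.0 TPM in PK-1 and 18.2, 17.7 and 52.0 TPM in Panc-1, where RARγi-1 left it near the control and RARγi-2 did not. HIST2H2BE had the largest log2 fold changes of any histone gene in PK-1, 2.67 and 2.76, with 5.79, 42.1 and 44.9 TPM. In Panc-1 it measured 2.08, 3.39 and 6.68 TPM.

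HIST1H2BN had the largest log2 fold changes of any histone gene in Panc-1, 1.90 and 3.31, with 1.33, 7.73 and 22.2 TPM, and in PK-1 it measured 1.44, 4.61 and 9.28 TPM. HIST1H2BG measured 3.71, 11.6 and 22.2 TPM in PK-1, and in Panc-1 it lay at the floor in the control and at 2.08 and 2.88 TPM after treatment. On HIST1H2BC the inhibitors parted in Panc-1, where it measured 4.44 TPM in the control, 2.03 TPM with RARγi-1 but 9.76 TPM with RARγi-2. In PK-1 it measured 8.48, 31.8 and 36.5 TPM, past 2-fold higher with both. HIST1H2BJ took the same order in Panc-1, with 3.93, 2.83 and 6.07 TPM and log2 fold changes of -0.37 and 0.52, past the yardstick and short of 2-fold, and measured 6.74, 9.42 and 6.23 TPM in PK-1. HIST2H2BA and HIST2H2BC, transcribed pseudogenes by RefSeq biotype that the symbol rule keeps, behaved differently from each other. HIST2H2BA measured 3.89, 6.60 and 7.43 TPM in PK-1 and 4.56, 13.5 and 12.3 TPM in Panc-1, while HIST2H2BC measured 15.7, 16.4 and 12.6 TPM and 3.93, 2.71 and 3.95 TPM.

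Among the clustered types, the H3 and H4 genes had the lowest summed levels in these libraries of tailed RNA. HIST1H3E measured 1.497, 9.84 and 7.95 TPM in PK-1, and in Panc-1 it lay at the floor except for 2.92 TPM with RARγi-2. The 14 clustered H3 genes summed to 12.2, 30.4 and 30.6 TPM in PK-1 and to 6.36, 8.23 and 19.5 TPM in Panc-1. HIST1H3D, at up to 8.08 TPM, overlaps HIST1H2AD in the RefSeq annotation, and reads from the pair may not be separable. Among H4 genes, HIST1H4H measured 5.45, 15.5 and 31.8 TPM in PK-1 and 1.77, 5.40 and 10.1 TPM in Panc-1, past 2-fold higher in all 4 comparisons. The copies HIST2H4A and HIST2H4B, between which reads may have been split, together measured 14.2, 34.9 and 58.2 TPM in PK-1 and 2.44, 5.96 and 8.83 TPM in Panc-1. HIST2H4B alone measured 12.2, 29.2 and 47.7 TPM and 2.44, 5.96 and 7.51 TPM, and HIST2H4A measured 2.05, 5.65 and 10.5 TPM in PK-1 and 1.33 TPM or less in Panc-1. HIST4H4 went the other way in PK-1, with 4.38, 3.11 and 2.65 TPM, short of 2-fold, and lay at the floor in Panc-1. The sum over the H4 genes was 2.18 and 3.63 times the control in PK-1 and 2.70 and 5.09 times in Panc-1. In Panc-1, 13, 13 and 10 of the 15 H4 genes lay at the floor, and with these counted as 1 TPM the ratios there were 1.41 and 1.83. Counted in the same way, those in PK-1 were 1.86 and 2.92.

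**Figure D3:**
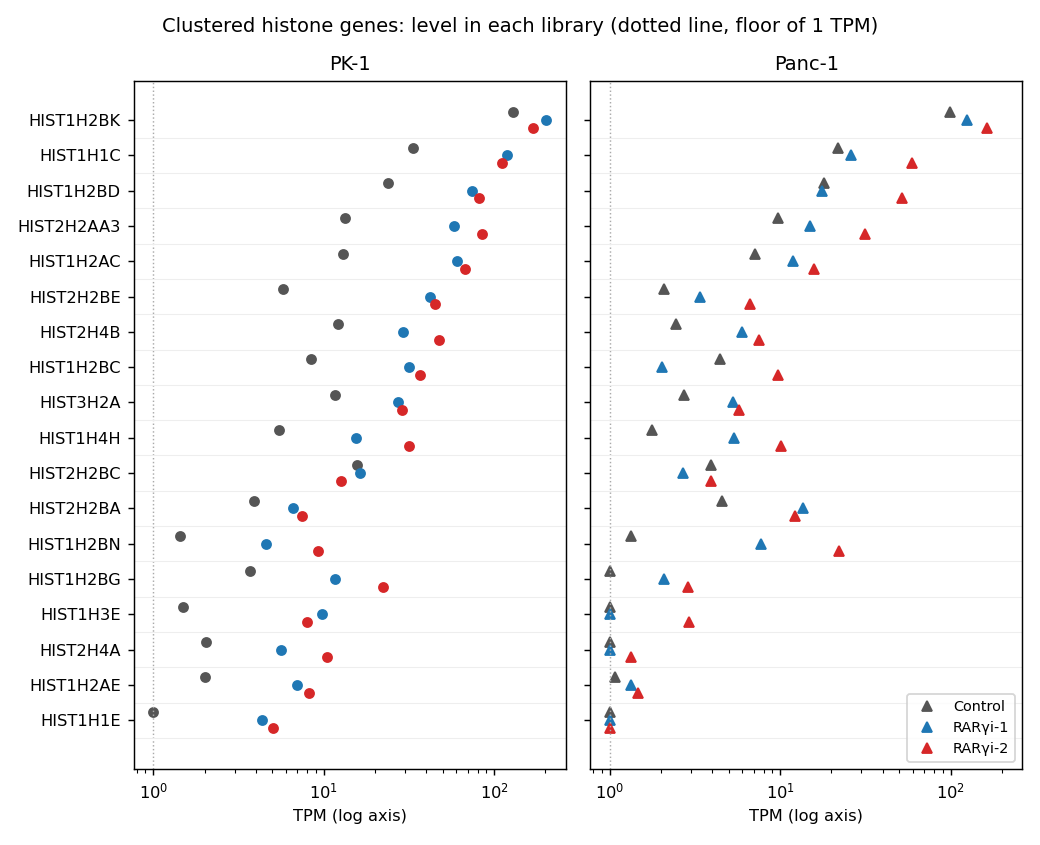
Level (TPM, log axis) of the 18 clustered histone genes named here in the control (grey), RARγi-1 (blue) and RARγi-2 (red) libraries, with PK-1 on the left and Panc-1 on the right and genes ordered by mean level. Treated points lie to the right of the control for all of these genes in PK-1 except HIST2H2BC with RARγi-2, and in Panc-1 the RARγi-1 points lie nearer to the control than the RARγi-2 points for most genes.

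Several clustered genes lie head to head, with starts within 1000 bases of each other on opposite strands. The search covered the 79 histone genes with a known strand and found 13 such pairs. Of these, 11 were of an H2A and an H2B gene and 2 of an H3 and an H2B gene. HIST1H2BF stands in 2 of the pairs, because HIST1H3D and HIST1H2AD have the same start in RefSeq. Genes without a strand were not searched, among them HIST1H2AH, which lies next to HIST1H2BK. In 7 of them, each of H2A and H2B, both genes lay above the floor in at least 1 library. HIST1H2BC and HIST1H2AC start 246 bases apart on chromosome 6, and their log2 fold changes were 1.79 and 2.14 with RARγi-1 and 1.99 and 2.30 with RARγi-2 in PK-1, but -0.84 and 0.67 with RARγi-1 and 0.98 and 1.05 with RARγi-2 in Panc-1. HIST2H2BE and HIST2H2AC start 236 bases apart on chromosome 1. HIST2H2BE had log2 fold changes of 2.67 and 2.76 in PK-1, while those of HIST2H2AC, a gene of at most 3.64 TPM, were 0.59 and 1.002. HIST1H2BG and HIST1H2AE, 233 bases apart, were close to each other in PK-1 with RARγi-1 (1.42 and 1.40). Of the 7 pairs, 0, 2, 1 and 0 had log2 fold changes of opposite sign in the 4 comparisons. Those in PK-1 with RARγi-2 were HIST1H2BJ and HIST1H2AG (-0.10 and 0.63), and HIST1H2AM and HIST1H2BO (-0.03 and 0.85). A gene at the floor in both libraries of a comparison has a log2 fold change of 0, so its pair could not be of opposite sign. In Panc-1 with RARγi-1 this held for HIST1H2AG, HIST1H2AK, HIST1H2AM and HIST1H2BO. With RARγi-2 there it held for HIST2H2AC, HIST3H2BB, HIST1H2AK, HIST1H2AM and HIST1H2BO.

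The calls of clustered genes in the lines were set side by side for each inhibitor. With RARγi-2, 10 genes were past 2-fold higher in both lines, which is 50% of the 20 in PK-1 and 90.9% of the 11 in Panc-1, beside 39.6% and 57.0% for the 674 shared among all entries called higher. These were HIST1H1C, HIST1H2AC, HIST1H2AD, HIST1H2BD, HIST1H2BN, HIST1H3D, HIST1H4H, HIST2H2AA3, HIST2H2BE and HIST2H4B. With RARγi-1, 3 were shared (HIST1H2BN, HIST1H4H and HIST2H4B, the last under 2-fold in Panc-1 once the libraries are rescaled), 16.7% of the 18 in PK-1 and 75% of the 4 in Panc-1, beside 32.8% and 40.9% for the 424 shared among all entries. Whether the lines differ in their response was not tested, as there is 1 library per condition.

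The inhibitors were also compared with each other inside a line, at doses that the labels do not give, so that the values stand side by side only. In Panc-1, 7 of 33 clustered genes were past 2-fold higher with RARγi-2 than with RARγi-1, against 0.705% of all entries, and 0 were lower, against 2.08%. These 7 were HIST1H1C, HIST1H2AD, HIST1H2BC, HIST1H2BD, HIST1H2BN, HIST1H3D and HIST2H2AA3. In PK-1, 0 of 44 were higher, against 1.34% of all entries, and 1 was lower, against 4.4%. This was HIST1H2AI, at 3.36 TPM with RARγi-1 and at the floor in the other libraries. No replacement variant was past 2-fold between the inhibitors in either line.

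Replacement variants gave a mixed picture. In PK-1, 2 of the 10 above the floor were higher and 1 lower with RARγi-1, and 2 were higher and 3 lower with RARγi-2. In Panc-1, 1 of 12 was higher and 1 lower with RARγi-1, and 1 was higher and 2 lower with RARγi-2. The percentages of all entries called in each comparison are those given above, and 1 gene of 12 is already 8.33%. Their median log2 fold change was -0.32, -0.81, -0.20 and -0.35 in the 4 comparisons.

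H1F0 was the variant with the largest rise. It encodes H1.0, the linker histone known to accumulate in differentiated and non-dividing cells, and measured 186, 552 and 627 TPM in PK-1 and 172, 438 and 401 TPM in Panc-1. All 4 treated libraries lay above both controls, with log2 fold changes of 1.56, 1.74, 1.35 and 1.22. H1FX, the gene for linker histone H1X, measured 73.6, 175 and 196 TPM in PK-1 and 210, 245 and 243 TPM in Panc-1. It was past 2-fold higher in PK-1 alone (1.24 and 1.40, against 0.23 and 0.21 in Panc-1), and the treated PK-1 libraries stayed under the Panc-1 control. HIST1H1C of the clusters shared the rise in PK-1, and the ratio of H1F0 to HIST1H1C was 5.57, 4.65 and 5.61 there, and 7.88, 16.8 and 6.75 in Panc-1.

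H2AFX had the lowest log2 fold change of any histone gene in all 4 comparisons. H2A.X is phosphorylated around DNA double-strand breaks, and its gene measured 268, 99.8 and 73.8 TPM in PK-1 and 338, 138 and 138 TPM in Panc-1. The log2 fold changes were -1.41, -1.84, -1.29 and -1.28, and it was the only replacement variant lower past 2-fold in all 4 comparisons. It is also the only variant with a stem-loop, as shown above, so its values, like those of the clustered genes, cover the tailed form of the mRNA.

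H2AFZ, which encodes H2A.Z, a variant found at promoters and other regulatory nucleosomes, had the highest TPM of any histone gene in both controls. It measured 986, 535 and 287 TPM in PK-1 and 980, 601 and 564 TPM in Panc-1. The controls lay close together and all treated libraries lay below them, with log2 fold changes of -0.88 and -1.78 in PK-1 against -0.70 and -0.80 in Panc-1, so that 2-fold was passed in PK-1 with RARγi-2. H2AFV, the second H2A.Z gene, measured 67.1, 46.7 and 34.0 TPM in PK-1 and 109, 57.3 and 60.5 TPM in Panc-1, lower in every treated library but within 2-fold. Summed, the H2A.Z genes stood at 0.552 and 0.305 times the control in PK-1 and at 0.605 and 0.574 times in Panc-1.

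The macroH2A genes carry a large additional domain and are known from the inactive X chromosome and silent chromatin. H2AFY measured 424, 334 and 268 TPM in PK-1 and 191, 155 and 126 TPM in Panc-1, the same order of libraries in each line, without passing 2-fold. H2AFY2 measured 18.9, 15.2 and 7.53 TPM in PK-1 and 7.94, 8.52 and 4.62 TPM in Panc-1, and was past 2-fold lower with RARγi-2 in PK-1. H2AFJ, whose product H2A.J has been described in senescent cells, measured 49.9, 75.9 and 78.2 TPM in PK-1 and 14.4, 19.3 and 20.3 TPM in Panc-1. It was higher in each treated library, past the yardstick and short of 2-fold.

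H3F3A and H3F3B encode the same protein, H3.3, and differed in their response. H3F3A measured 298, 199 and 154 TPM in PK-1 and 312, 179 and 149 TPM in Panc-1. H3F3B measured 289, 292 and 318 TPM in PK-1 and 454, 421 and 431 TPM in Panc-1. The log2 fold changes of H3F3A were -0.58 and -0.95 in PK-1 against -0.80 and -1.07 in Panc-1, just short of and just past 2-fold with RARγi-2, whereas those of H3F3B lay between -0.11 and 0.13. The ratio of H3F3A to H3F3B went from 1.03 to 0.681 and 0.484 in PK-1 and from 0.688 to 0.426 and 0.344 in Panc-1, so that the part of the H3.3 mRNA from H3F3A was smaller in each treated library than in its control. Their sum was 0.835 and 0.803 times the control in PK-1 and 0.784 and 0.757 times in Panc-1. H3F3AP4, a pseudogene copy dropped by symbol, was the only dropped pseudogene above the floor, at 60.3, 39.7 and 35.4 TPM in PK-1 and 66.0, 38.0 and 30.2 TPM in Panc-1, and may share reads with H3F3A. With H3F3AP4 added, H3F3A stood at 0.666, 0.529, 0.574 and 0.473 times the control. The remaining variants above the floor, H3F3C and H2AFB3, did not exceed 1.53 TPM.

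**Figure D4:**
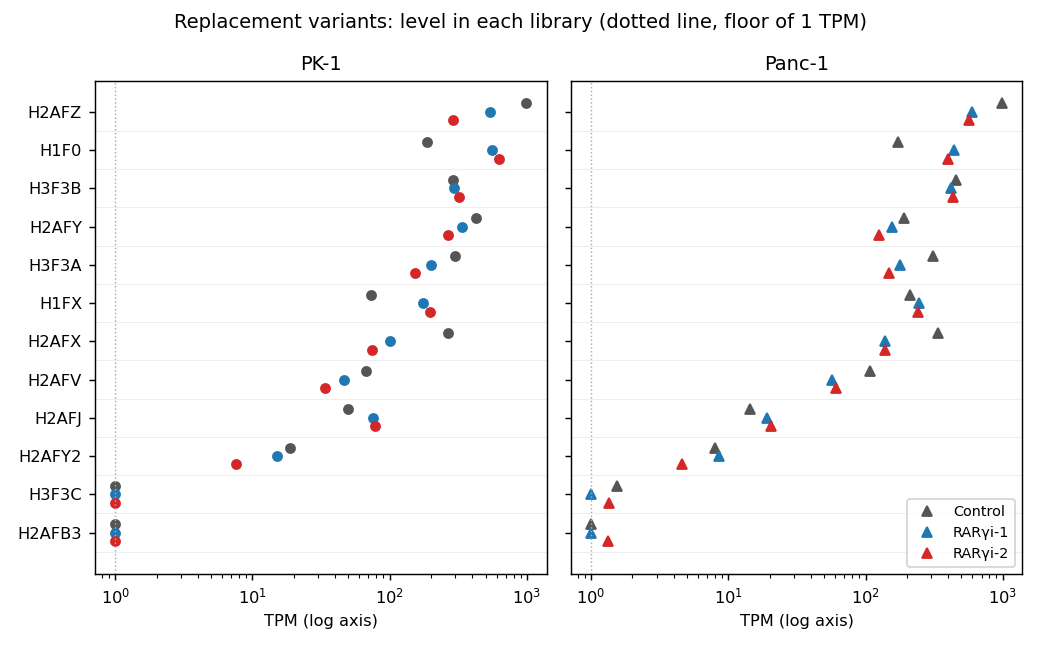
Level (TPM, log axis) of the 12 replacement variants above the floor in the control (grey), RARγi-1 (blue) and RARγi-2 (red) libraries, with PK-1 on the left and Panc-1 on the right, ordered by mean level. H1F0 lies to the right of its control and H2AFX and H3F3A to the left in both lines, while the 3 points of H3F3B lie close together.

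The control libraries of the lines, 1 each, were also set side by side. In the PK-1 control, 9 of 34 clustered genes were past 2-fold above the Panc-1 control, against 14.6% of all entries, and 0 were below, against 15.7%. The largest of these differences were in HIST2H4B (12.2 and 2.44 TPM, log2 difference 1.94), HIST2H2BC (1.76) and HIST3H2A (1.75). A gene can be called below only where its Panc-1 control exceeds 3 TPM. That held for 9 clustered genes, while 17 exceeded 3 TPM in the PK-1 control, so the absence of genes below rests on few genes. Of 11 replacement variants, H2AFJ (log2 difference 1.73), H2AFY (1.15) and H2AFY2 (1.15) were higher in PK-1, and H1FX was lower (-1.50). H2AFZ, at 986 and 980 TPM, and H3F3A, at 298 and 312 TPM, were at like levels.

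The genes that process, carry and deposit histones were followed as lists. Of 20 genes for histone mRNA transcription, 3′ end processing and turnover, 1 was lower past 2-fold with RARγi-1 and 5 with RARγi-2 in PK-1, and 0 in Panc-1. None was higher. In PK-1 that is 5% and 25% of the list, beside 4.85% and 12.3% of all entries, so the count with RARγi-1 was near the background. The 0 lower in Panc-1 stand beside 5.96% and 11% of all entries. The 0 higher stand beside 9.05%, 11.9%, 7.3% and 8.34%. As 1 gene of 20 is already 5%, these zeros rest on few genes. SLBP, which binds the stem-loop, measured 108, 51.4 and 37.1 TPM in PK-1 and 84.6, 53.3 and 46.9 TPM in Panc-1, past 2-fold lower in PK-1 only. NPAT, the coactivator of clustered histone transcription, measured 9.71, 5.81 and 3.75 TPM in PK-1 and 6.66, 5.61 and 5.06 TPM in Panc-1, and CASP8AP2, a part of the processing complex, measured 6.14, 2.71 and 1.53 TPM and 6.83, 4.89 and 3.73 TPM.

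Of 25 genes for histone supply and chaperones, 10 and 12 were lower in the PK-1 and 6 and 8 in the Panc-1 comparisons (RARγi-1, RARγi-2), and 0, 0, 1 and 2 were higher. The shares lower were 40%, 48%, 24% and 32%, beside 4.85%, 12.3%, 5.96% and 11% of all entries. The shares higher were 0%, 0%, 4% and 8%, beside 9.05%, 11.9%, 7.3% and 8.34%, so the count with RARγi-2 in Panc-1 was near the background. NASP, a carrier of H3 and H4, measured 207, 75.3 and 45.01 TPM in PK-1 and 198, 83.8 and 74.2 TPM in Panc-1. The paralogues of the H3-H4 chaperone ASF1 went opposite ways. ASF1B measured 85.8, 17.8 and 7.23 TPM in PK-1 and 83.8, 23.4 and 18.3 TPM in Panc-1, whereas ASF1A measured 19.3, 31.2 and 28.9 TPM and 32.9, 70.9 and 79.1 TPM. Of 24 S phase genes, 22, 23, 21 and 22 were lower in the 4 comparisons, with medians of -1.96, -2.82, -1.75 and -2.21, and 0 were higher. The shares lower were 91.7%, 95.8%, 87.5% and 91.7%, to be set beside the same shares of all entries. All 24 exceeded 3 TPM in both controls, which most clustered histone genes did not.

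As a check of the labels, the epithelial genes KRT8, KRT18, KRT19 and EPCAM lay above the floor in all 6 libraries, and CDH1 in the PK-1 libraries only. Of the fibroblast, leukocyte and endothelial genes, COL1A1 was present in all 6, at 2.10 to 52.4 TPM, and COL1A2, DCN, LUM, PTPRC and PECAM1 lay at the floor in all 6. Without a pseudocount, rescaling the libraries by their median ratios shifts every log2 fold change by -0.11, 0.05, -0.09 and -0.002 in the 4 comparisons. With the pseudocount of 1 TPM the shift also depends on the level of the gene.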

How the data were processed

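RNA of 6 cultures (PK-1 and Panc-1, control, RARγi-1 or RARγi-2) was sequenced, with 1 library each. The authors deposited log2 values of TPM for 53826 entries per library, with values under 1 TPM raised to 1 TPM, as read from the values. The submitters' processing notes name hg 38. The aligner, counting method and annotation are not given in the sources used here. Since TPM carries no depth, intervals were not computed.

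Deposited values were raised back from log2 to TPM. Fold changes used a pseudocount of 1 TPM, calls more than 2-fold, and sums left out values at the floor. Within a line there is 1 library per condition and so no test, and a fit over both lines with the line as a block was not run. Named are replacement variants above the floor, clustered genes that reach 10 TPM, and other histone genes past 2-fold with both inhibitors of a line at 5 TPM or more. HIST4H4, HIST1H1B, HIST1H1D, HIST1H3D, HIST1H2AD, HIST1H2AI, HIST2H2AA4, HIST2H2AC, HIST1H2BJ, HIST1H2AG, HIST1H2AK, HIST1H2AM, HIST1H2BO and HIST3H2BB were named after their values were seen. The yardstick is the median absolute deviation (scaled by 1.4826) of the difference between the inhibitor libraries of a line, over entries that reach 5 TPM. The histone genes and lists were chosen with earlier results of these data known. ARS2, TUT7 and SPT2 of the lists have no entry under that symbol, but the lists also name these genes as SRRT, ZCCHC6 and SPTY2D1, which were found. Names and promoters came from RefSeq (GRCh38.p14, all 91 matched by Entrez ID), stem-loops from GENCODE 29. The search of whole transcripts for stem-loops was added after the values were seen. Python 3.11.15, numpy 2.4.6, pandas 2.3.3 and matplotlib 3.10.9 were used. The scripts were tested on simulated data.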

Additional observations from a re-analysis of the deposited data

How the results depend on the processing

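No paired analysis was possible because the groups share only 1 replicate number, and no library could be left out. A fit over both lines with the line as a block was not run. Without a pseudocount, the clustered median in PK-1 with RARγi-1 was 1.07. Without one, and with 0.1 TPM, 1 clustered gene was lower in Panc-1 with RARγi-1 and 1 replacement variant was lower with RARγi-2 than with RARγi-1 in PK-1. In that last comparison 3 clustered genes were higher without a pseudocount, 2 with 0.1 TPM and 3 after rescaling. Over genes of at least 5 TPM, the clustered medians were 1.20 and 1.71 in PK-1 against 0.58 and 1.30 in Panc-1, with 0.81 between the inhibitors in Panc-1, the variant median in Panc-1 with RARγi-2 was -0.63, 5 clustered genes were higher in the PK-1 than in the Panc-1 control, and 0 were lower between the inhibitors in PK-1. At more than 1.5-fold, clustered genes in Panc-1 were higher in 8 cases (RARγi-1) and 17 (RARγi-2) and lower in 1 (RARγi-1); between the inhibitors 9 were higher and 3 lower in PK-1 and 11 higher in Panc-1; and 15 were higher in the PK-1 than in the Panc-1 control. Variants lower at 1.5-fold were 2 and 6 in PK-1 against 4 and 6 in Panc-1, with 2 (PK-1) and 1 (Panc-1) between the inhibitors and 3 between the controls. Counting floor values as 1 TPM, an alternative added after seeing the data, the clustered sum in Panc-1 with RARγi-2 was 0.99 on the log2 scale above its control, against 1.22, and the H3 sum there was 1.68 times its control, against 3.06. Keeping pseudogenes in, or leaving out those of RefSeq biotype (added after seeing the data), moved no count by more than 1.5 times and no median past the yardstick. The cause of these changes was not tested. No called gene changed direction. HIST2H4B in Panc-1 with RARγi-1 was under 2-fold after rescaling (0.94). Without a pseudocount, HIST1H2BG in Panc-1 was past 2-fold (1.06 with RARγi-1 and 1.52 with RARγi-2), as were HIST1H3E (1.54) and HIST3H2A (1.06) with RARγi-2, and HIST1H2BC in Panc-1 was past 2-fold in opposite directions (-1.13 with RARγi-1 and 1.13 with RARγi-2). As TPM carries no depth, how far counting error limits the genes near the floor is unknown.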
